A study of Mus musculus with 6 samples.

Results

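The subject is a set of 49 genes of DNA repair and damage signalling, picked by name from a deposited table of 55421 mouse genes. The names cover break repair, translesion synthesis, excision, mismatch and direct repair, and the damage kinases. They were proposed with the difference between KO and WT in these same libraries already known, so that difference is a description of the members and their number called supports nothing by itself. All 49 names matched 1 row each, and 41 passed the filter on low values, which was a normalised count of at least 10 in at least 3 libraries. A member can pass that filter through the group in which it is high, as Zfp365 did, so the 41 are not the whole set.

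The KO group was 3 mice with floxed alleles of Ire1α (K14CreERT2 IRE1 F/F), in which Cre recombinase fused to a tamoxifen-dependent receptor is driven by the keratin 14 promoter, active in basal keratinocytes. The WT group was 3 littermates with the floxed alleles and no Cre (IRE1F/F). Only the KO group carried Cre, so an effect of Cre and one of the loss of Ire1α cannot be told apart. All 6 mice received tamoxifen on 4 days and were harvested on day 5. The epithelium was peeled from the tongue after 10 minutes of enzyme digestion at 37 °C, and 1 library of 3' mRNA tags (QuantSeq) was made from each mouse. The labels give neither the ages of the mice nor the exons that are removed. Ire1α (gene Ern1) detects misfolded protein in the endoplasmic reticulum.

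Cells keep separate repair routes for separate lesions. Excision repair cuts out damaged bases or stretches of strand, end joining and homologous recombination rejoin broken DNA, and translesion polymerases copy past lesions that stop the replicative enzymes. The kinases ATM and ATR sense damage and pass the signal to CHK1, CHK2 and p53, and p53 in turn switches on a few repair genes besides those for cell cycle arrest and death. The tongue lining renews from dividing basal keratinocytes, and homologous recombination genes are mostly transcribed in cells that replicate their DNA.

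Libraries held 5202101 to 6286153 reads in KO and 4606309 to 5911884 in WT. Values below are the authors' normalised read counts, and the limit that a count of 0 allows is 3 reads (2.59 to 3.92 in these units), for counting error only. Ern1 had 78.0, 117 and 123 in KO replicates 1 to 3, against 102, 105 and 77.1 in WT replicates 1 to 3, but a tag at the 3' end may lie outside the deleted part and then checks nothing. Keratinocyte markers were present throughout, with suprabasal Krt13 at 234931 to 328701 in KO and 228829 to 324353 in WT. The summed level of 10 basal keratinocyte markers was 37951 to 65657 in KO and 26745 to 29119.7 in WT, with no overlap. Krt14 and Krt5 made up most of that sum in every library. Of the 10 markers, 8 had a positive and 2 a negative log2 fold change (median 0.71; 1 rose with limma). Krt14 had 31082 ± 8822 in KO and 13978 ± 1108 in WT (SD, n = 3 each; limma adjusted p = 0.0694), while Krt15 and Trp63 were the 2 with lower means in KO. KO replicate 1 stood apart in skeletal muscle transcripts. The summed level of 13 muscle markers was 1130 to 3830 in KO and 892 to 1114 in WT, with Acta1 and Tnnc2 at 0 in all libraries. Summed over 12 leukocyte markers the level was 203 to 398 in KO and 199.8 to 299 in WT, and Itgam and Trdc were at 0 in all libraries. The 10 fibroblast markers, of which Dpt was at 0 in all libraries, summed to 253 to 1172 in KO and 1442 to 1972 in WT. Dcn alone had 195 to 544 in KO and 1329 to 1856 in WT. Col1a1, Col1a2 and Col3a1 were highest in KO replicate 1, at 190, 235 and 102. They had 3.45 to 14.3 in KO replicates 2 and 3 and 5.22 to 21.7 in WT. Of 4 tested fibroblast markers, 2 had a positive and 2 a negative log2 fold change. Sums of 7 endothelial markers were 68.6 to 126 in KO and 35.3 to 50.6 in WT, and of 7 taste bud markers 9.48 to 18.1 in KO and 7.54 to 13.1 in WT. The part of basal keratinocytes and of these other cells in the results below was not tested. The fit of KO against WT was repeated without each library in turn for the members and the counts of calls.

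Among the 41 tested members, 6 rose in KO and 0 fell (limma, adjusted p under 0.05 over all 10987 tested genes). The 6 were Rnf169, Mgmt, Zfp365, Polk, Ercc5 and Rev1, with level differences of 2.59-fold to 6.63-fold between group means. They belong to 5 different repair roles, and in those with further tested members none of the others passed. Over all tested genes 1.22% were higher and 0.583% lower in KO. The members' median log2 fold change was 0.10, against -0.01 over all tested genes. For the 35 members that did not pass it was 0.08, with a range of -0.74 to 1.03. In 27 of those 35 the log2 fold change lay within 0.5 of 0. In bulk tissue, fewer cells of a type and less RNA per cell cannot be told apart. The same 6 members rose with edgeR and with DESeq2 on the recovered reads, in each case with 0 lower, where the share of all genes higher was 1.14% with edgeR and 1.97% with DESeq2 and the share lower 0.592% and 1.38%. The authors' deposited table of 341 called genes, 199 of them higher in KO, comes from the same 6 libraries and is not separate evidence. It lists these 6 members and no other, with log2 fold changes of 1.38 for Ercc5 to 2.70 for Zfp365.

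**Figure D1:**
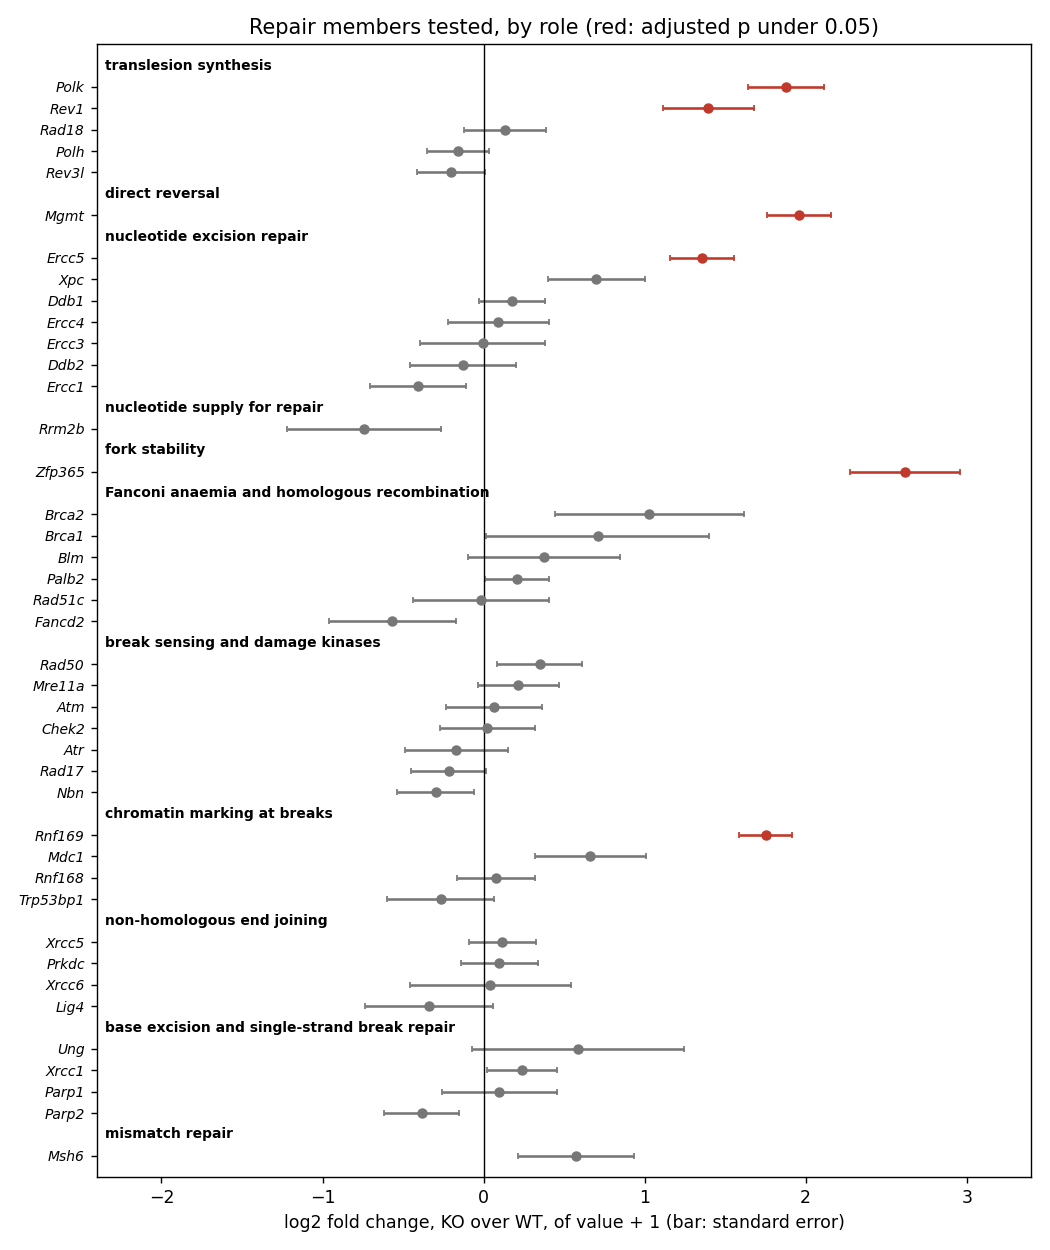
Log2 fold change, KO over WT, of each of the 41 tested members on the log2(value + 1) scale, grouped by repair role, with bars for the standard error and red for an adjusted p under 0.05. The 6 red members lie between 1.36 and 2.61 and stand in 5 role groups, while the other 35 lie between -0.74 and 1.03.

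The translesion polymerases were split. Polk encodes polymerase kappa, a Y-family enzyme that copies past bulky adducts (ENSMUSG00000021668, chromosome 13, 96480690 to 96542579, minus strand, GENCODE M21 on GRCm38). It had 130.0, 181 and 127 normalised counts in KO replicates 1 to 3, against 46.2, 39.3 and 31.3 in WT replicates 1 to 3. Every KO library was thus above every WT library, as in 9.84% of all tested genes. The means were 146 ± 30.4 in KO and 38.9 ± 7.42 in WT (SD, n = 3 each), a log2 fold change of 1.88 ± 0.24 (SE, limma adjusted p = 0.00381). Rev1, a deoxycytidyl transferase that also serves as the landing platform for the other translesion polymerases, had 69.3, 109 and 65.8 in KO replicates 1 to 3 and 24.5, 38.4 and 27.4 in WT replicates 1 to 3. KO replicate 2 was the highest library for both genes, and the groups did not overlap for either. The means of Rev1 were 81.5 ± 24.3 in KO and 30.1 ± 7.32 in WT (SD, n = 3 each; log2 fold change 1.39 ± 0.28 (SE), limma adjusted p = 0.0368). That call was lost whichever library was left out (limma adjusted p from 0.0648 to 0.0975). Rev1 runs into the opposite-strand gene Eif5b at its 3' end, and the strand setting of the counting is not given in the sources used here, so reads of the pair may not be told apart. Eif5b, a translation initiation factor, had 1782 ± 335 in KO and 1483 ± 97.2 in WT (SD, n = 3 each; limma adjusted p = 0.629).

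The partners of these polymerases did not pass. Polh, polymerase eta, which copies past ultraviolet dimers and is a known p53 target in human cells, had 101, 81.0 and 105 in KO replicates 1 to 3 and 105, 109 and 104 in WT replicates 1 to 3. The groups overlapped, and the log2 fold change of -0.16 had a 95% interval of -0.59 to 0.27. Rev3l, the catalytic subunit of polymerase zeta that extends past the lesion, and Rad18, the ligase that marks the sliding clamp for these enzymes, differed by -0.20 and 0.13 on the log2 scale, KO over WT (limma adjusted p = 0.748 and 0.880). Poli, polymerase iota, was below the filter, with 4.31 to 10.5 in KO and 6.11 to 10.4 in WT.

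Mgmt was the only member for direct reversal. Its protein takes alkyl groups off guanine onto itself and is spent in doing so (ENSMUSG00000054612, chromosome 7, 136894614 to 137130266, plus strand). Mgmt had 317, 347 and 315 in KO replicates 1 to 3, against 69.7, 80.3 and 103 in WT replicates 1 to 3. The lowest KO library was above the highest WT library by a wide margin. Means of 327 ± 17.9 in KO and 84.4 ± 17.1 in WT (SD, n = 3 each) gave a 3.87-fold difference, or a log2 fold change of 1.96 ± 0.20 (SE, limma adjusted p = 0.00113). It passed whichever library was left out (highest limma adjusted p = 0.0114).

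In nucleotide excision repair, which removes bulky lesions and ultraviolet damage, 1 of 7 tested members rose. This was Ercc5, the XPG endonuclease that makes the incision on the 3' side of the lesion (ENSMUSG00000026048, chromosome 1, 44147744 to 44181260, plus strand). Ercc5 had 233, 208 and 171 in KO replicates 1 to 3 and 81.1, 68.9 and 86.2 in WT replicates 1 to 3, with no overlap. Its means were 204 ± 31.4 in KO and 78.7 ± 8.86 in WT (SD, n = 3 each), a log2 fold change of 1.36 ± 0.20 (SE, limma adjusted p = 0.00798; highest 0.0474 with 1 library left out).

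Xpc, which recognises the lesion, had 76.9, 39.6 and 41.0 in KO replicates 1 to 3 and 30.2, 34.0 and 27.4 in WT replicates 1 to 3. The groups did not overlap, but KO replicate 1 set much of the distance, and the log2 fold change of 0.70 did not pass (95% interval 0.03 to 1.37, limma adjusted p = 0.347). It was the only member besides the 6 with an unadjusted p under 0.05, which 13.5% of all tested genes had. Ddb2, the damage-binding partner of Ddb1 and a p53 target in human cells, had 45.5, 62.9 and 25.7 in KO replicates 1 to 3 and 49.0, 52.4 and 37.9 in WT replicates 1 to 3. The KO libraries spanned the whole WT range, with a log2 fold change of -0.13 (95% interval -0.85 to 0.60). Without KO replicate 3 it was 0.21 (limma adjusted p = 0.886). Ddb2 overlaps the opposite-strand gene Acp2 near its 3' end, so with the strand setting not given, reads there may have gone uncounted. The same limit holds for Ercc1 (Cd3eap) and, below, for Trp53bp1 (Tubgcp4), Fancd2 (Fancd2os) and Msh6 (Fbxo11). Ddb1, Ercc1, Ercc3 and Ercc4 were at 0.17, -0.41, -0.01 and 0.09 on the log2 fold change scale, with limma adjusted p from 0.616 to 0.999. Ercc2, a helicase of this pathway, had 3 reads in all 6 libraries together and was not tested. It overlaps the opposite-strand gene Klc3 near its 3' end, so reads there may have gone uncounted.

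Zfp365 had the highest log2 fold change of the members. It is a zinc finger protein whose human counterpart is a p53 target linked to the recovery of stalled replication forks (ENSMUSG00000037855, chromosome 10, 67886103 to 67912662, minus strand). It had 58.5, 59.5 and 42.9 in KO replicates 1 to 3 and 9.42, 9.60 and 5.22 in WT replicates 1 to 3. These values rest on 54, 69 and 45 reads in KO and 10, 11 and 4 reads in WT, the thinnest coverage among the 6. Every WT library was under 10, so Zfp365 passed the filter through its KO libraries alone, and its call describes the gene without supporting a direction. The means were 53.6 ± 9.31 in KO and 8.08 ± 2.48 in WT (SD, n = 3 each; log2 fold change 2.61 ± 0.34 (SE), limma adjusted p = 0.00450). Leaving out any 1 library kept the call (highest limma adjusted p = 0.0309). Rrm2b, the p53-inducible small subunit of ribonucleotide reductase, which supplies nucleotides for repair, had a lower mean in KO and did not pass. Its values were 47.7, 127 and 58.1 in KO replicates 1 to 3 and 241, 118 and 58.8 in WT replicates 1 to 3. WT replicate 1 was highest and the other libraries overlapped (log2 fold change -0.74, 95% interval -1.80 to 0.32, limma adjusted p = 0.563).

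**Figure D2:**
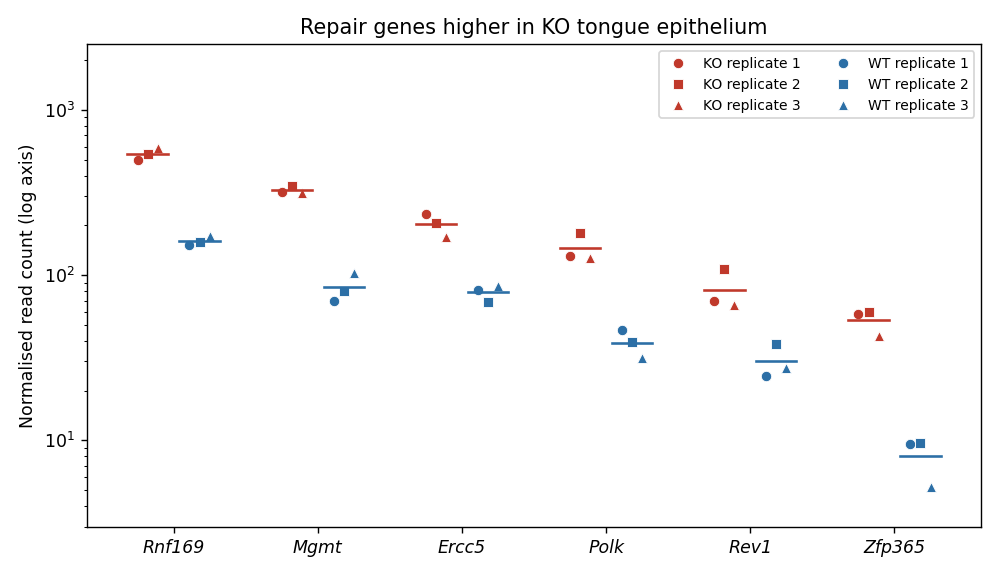
Normalised read counts on a log axis of the 6 members that rose, with a symbol for each library and a line at the group mean, KO in red on the left of each pair and WT in blue. For each gene the 3 KO libraries lie above the 3 WT libraries, from Rnf169 at 499 to 589 in KO and 152 to 172 in WT to Zfp365 at 42.9 to 59.5 in KO and 5.22 to 9.60 in WT.

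Since Polk and Zfp365 are known p53 targets, the promoters of the members were searched for the p53 consensus, a pair of 10-base units with a gap of at most 1 base. The motif reads alike on both strands and overlaps no other motif searched. RefSeq (GRCm38.p6) gave 44 windows of 250 bases before an annotated start for 39 of the 49 members, with none for Rrm2b, Nbn, Fancd2, Prkdc, Rev3l, Poli, Ercc3, Ddb2, Xpc and Rad50. Among the 8 windows of the 6 genes that rose, 2 held a match with at most 2 of its 20 bases off, 1 in Polk and 1 in Zfp365. The remaining 6 windows and the 36 windows of the other members had more mismatches. Of all 32851 promoter windows 1.47% held such a match, so few are to be found in 44 windows, and 0.14% held one with at most 1 base off. With at most 3 bases off, 5 of the 44 windows matched, the others being those of Chek2, Fanca and Parp1, and 9.92% of all windows did. The motif is also close to that of p63, a p53 relative that marks basal keratinocytes. A match in letters does not show binding. Of the members known as p53 targets that did not pass, Xpc, Ddb2 and Rrm2b had no window, and Polh had 5 mismatches. The search was also made with the rise of Polk and Zfp365 known, so the contrast with the other members is a description only.

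The 2 windows are shown because they carry the near matches, printed 5′ to 3′ on the gene's strand with both 10-base units in capitals. In Polk (chr13:96519188-96519437, minus strand) the match has 1 mismatch and 1 base between the units, and runs from -231 to -211 relative to an annotated start. This window lies within an intron of the GENCODE gene, and the start itself was not checked against the exons. The window at the other annotated Polk start had 7 mismatches at best. In Zfp365 (chr10:67912663-67912912, minus strand) it has 2 mismatches and no gap, and runs from -63 to -44 ahead of the first exon.
Polk: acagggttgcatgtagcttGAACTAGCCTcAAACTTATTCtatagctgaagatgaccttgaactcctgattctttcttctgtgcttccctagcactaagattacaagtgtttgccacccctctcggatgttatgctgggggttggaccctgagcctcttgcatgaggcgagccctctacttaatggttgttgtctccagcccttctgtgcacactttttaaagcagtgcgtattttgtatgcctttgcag
Zfp365: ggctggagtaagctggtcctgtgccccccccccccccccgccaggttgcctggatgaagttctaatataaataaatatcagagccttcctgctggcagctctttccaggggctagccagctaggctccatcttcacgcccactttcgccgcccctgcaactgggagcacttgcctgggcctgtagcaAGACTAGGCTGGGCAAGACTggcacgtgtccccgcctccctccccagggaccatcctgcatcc

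At broken DNA, RNF8 and RNF168 attach ubiquitin to the surrounding histones, which draws in 53BP1, and RNF169 reads the same mark and competes with 53BP1 for it in human cells. Rnf169 (ENSMUSG00000058761, chromosome 7, 99920254 to 99980448, minus strand) had 499, 542 and 589 in KO replicates 1 to 3, against 152, 158 and 172 in WT replicates 1 to 3. Replicates of each group lay close together and far from the other group. The means were 543 ± 44.8 in KO and 161 ± 10.6 in WT (SD, n = 3 each), a log2 fold change of 1.75 ± 0.17 (SE, limma adjusted p = 0.00113; highest 0.0107 with 1 library left out). Its relative Rnf168 had 200.4, 166 and 266 in KO replicates 1 to 3 and 171, 166 and 266 in WT replicates 1 to 3, with near-equal values in the 2 groups (log2 fold change 0.08, 95% interval -0.46 to 0.62). Trp53bp1, which encodes 53BP1, had a log2 fold change of -0.27 (limma adjusted p = 0.798). Mdc1, the scaffold that recruits RNF8, had 26.0, 24.1 and 18.1 in KO replicates 1 to 3 and 12.3, 18.3 and 11.8 in WT replicates 1 to 3. The groups overlapped, and the log2 fold change of 0.66 did not pass (95% interval -0.10 to 1.43, limma adjusted p = 0.449). Rnf8 had 0 reads in all 6 libraries. At its 3' end it overlaps another protein-coding gene on the same strand.

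None of the 7 tested members for break sensing and the damage kinases passed, with log2 fold changes of -0.30 to 0.35 and limma adjusted p of 0.629 to 0.986. Nbn and Rad50, parts of the complex that holds broken ends with Mre11a, gave both ends of that range. Nbn had 48.8, 36.2 and 37.2 in KO replicates 1 to 3 and 49.9, 54.1 and 45.7 in WT replicates 1 to 3. Rad50 had 264, 149 and 166 in KO replicates 1 to 3 and 109, 175 and 165 in WT replicates 1 to 3. In both genes the groups overlapped. Atm and Atr, the kinases that start the signal, had 67.6 ± 28.9 and 24.4 ± 2.99 in KO, and 61.6 ± 9.25 and 28.4 ± 10.2 in WT (SD, n = 3 each). Chek2, the kinase downstream of ATM, had 34.3 ± 4.89 in KO and 34.6 ± 10.5 in WT (SD, n = 3 each). Chek1, its counterpart downstream of ATR, was below the filter with 3 to 10 reads in KO and 1 to 11 reads in WT. The kinases act mainly through phosphorylation, which mRNA levels do not measure.

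In the Fanconi anaemia and homologous recombination group 0 of 6 tested members passed. Brca2, a core protein of homologous recombination, had 36.8, 9.48 and 14.3 in KO replicates 1 to 3 and 3.77, 8.73 and 14.4 in WT replicates 1 to 3. KO replicate 1 stood above the rest, which overlapped (log2 fold change 1.03, 95% interval -0.26 to 2.32, limma adjusted p = 0.498). Fancd2, which is ubiquitinated at crosslinks, had 14.1, 10.3 and 12.4 in KO replicates 1 to 3 and 23.6, 11.3 and 23.5 in WT replicates 1 to 3, with a log2 fold change of -0.57 (95% interval -1.44 to 0.31). Palb2, the bridge between BRCA1 and BRCA2, had 126 ± 9.94 in KO and 110 ± 17.7 in WT (SD, n = 3 each). Of the untested pair, Fanca had 0 reads in all libraries and Fanci 4.31 to 7.62 in KO and 0 to 9.14 in WT. Both overlap an opposite-strand gene near the 3' end (Zfp276 and Polg). With the strand setting not given, reads there may have gone uncounted.

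End joining, which ligates broken ends without a template, had 0 of 4 members called. Log2 fold changes were 0.12 for Xrcc5 and 0.04 for Xrcc6, which encode the Ku subunits that cap the ends, 0.10 for Prkdc, their kinase, and -0.34 for Lig4, the ligase (limma adjusted p of 0.788 to 0.983). Xrcc5 was steady, with 65.0, 64.6 and 71.5 in KO replicates 1 to 3 and 61.3, 69.8 and 54.9 in WT replicates 1 to 3. Lig4 had 13.0, 31.0 and 17.2 in KO replicates 1 to 3 and 33.9, 25.3 and 17.0 in WT replicates 1 to 3, and the groups overlapped. For base excision and nick repair 0 of 4 tested members passed. Parp2, a sensor of nicks, had 46.6, 61.2 and 47.6 in KO replicates 1 to 3 and 80.1, 66.3 and 57.5 in WT replicates 1 to 3. The log2 fold change of Parp2 was -0.38 (95% interval -0.90 to 0.13), and that of Xrcc1, the scaffold of nick repair, was 0.24 (95% interval -0.24 to 0.72). Apex1 and Ogg1, an endonuclease and a glycosylase that act on damaged bases, were below the filter at 29 and 30 reads in all libraries together. Both overlap an opposite-strand gene near the 3' end (Pip4p1 and Camk1), so reads there may have gone uncounted. Msh6, a mismatch sensor, had 73.7, 54.3 and 43.8 in KO replicates 1 to 3 and 43.4, 56.7 and 20.9 in WT replicates 1 to 3, and did not pass (log2 fold change 0.57, limma adjusted p = 0.552).

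Some members shared the same 2 highest libraries, which came from different genotypes. In 9 of the 41 tested members, or 22.0%, the highest libraries were KO replicate 1 and WT replicate 2, compared with 9 of 68 other DNA repair genes (13.2%) and 5.52% of all tested genes. The 9 are Atm, Blm, Brca1, Mre11a, Msh6, Parp1, Rad50, Rad51c and Ung, noticed after their values were seen. Ung, a glycosylase that removes uracil from DNA, had 48.8, 10.3 and 19.1 in KO replicates 1 to 3 and 6.60, 37.5 and 10.4 in WT replicates 1 to 3. Brca1, which works at the start of homologous recombination, had 19.5, 12.9 and 16.2 in KO replicates 1 to 3 and 1.88, 24.4 and 14.4 in WT replicates 1 to 3, from 2 to 28 reads a library. In both, the WT libraries differed among themselves by more than the group means differed.

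These 9 genes were picked for their 2 highest libraries, so their mean must peak there. Their mean log2 level, relative to the WT mean, was 0.89, 0.09 and 0.01 in KO replicates 1 to 3 and -0.49, 0.63 and -0.14 in WT replicates 1 to 3. A list of 23 tested S phase genes stood at 0.90, 0.15 and 0.35 in KO replicates 1 to 3 and -0.11, 0.23 and -0.13 in WT replicates 1 to 3, and 7 of these 23 genes had the same 2 libraries highest. Mean levels of 6 tested leukocyte markers were 0.81, 0.04 and -0.06 in KO and -0.48, 0.45 and 0.04 in WT in the same order of replicates. Muscle markers were highest in KO replicate 1 and next in KO replicate 3, at 2.74 and 0.80, with WT replicate 2 at 0.40. Of 8 tested muscle markers, 0 had KO replicate 1 and WT replicate 2 highest. In the S phase list too, KO replicate 3 stood above WT replicate 2. The part of replicating cells, leukocytes or muscle in the pattern of the 9 genes was not tested.

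**Figure D3:**
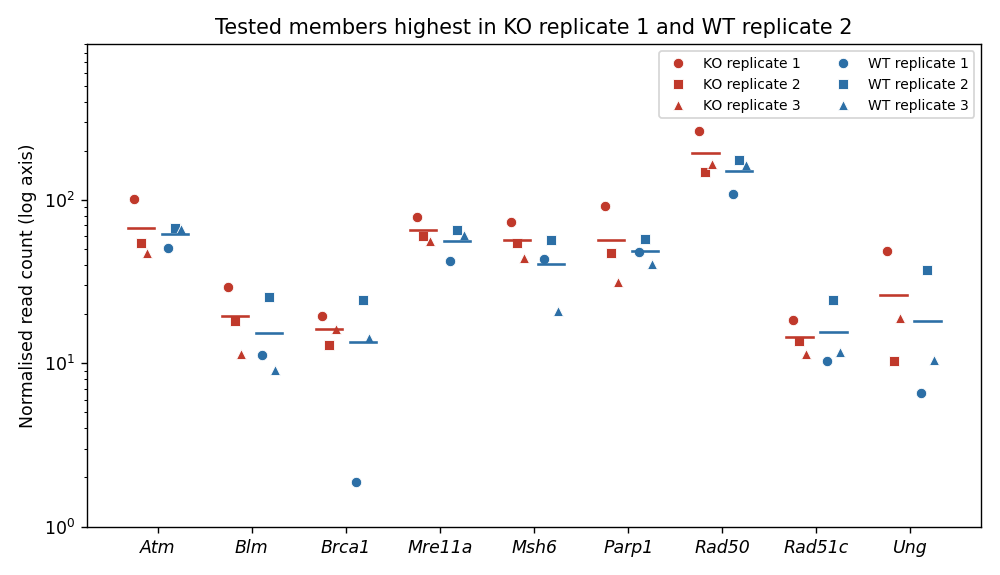
Normalised read counts on a log axis of the 9 tested members whose highest libraries were KO replicate 1 and WT replicate 2, with a symbol for each library and a line at the group mean, KO in red on the left of each pair and WT in blue. The red circle and the blue square lead in each gene, and the groups overlap, as for Ung with 10.3 to 48.8 in KO and 6.60 to 37.5 in WT.

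Repair genes outside the set were taken from a list of 92 further genes of the same routes, of which 91 were in the table and 68 were tested. With limma 0 rose and 0 fell (3 higher and 7 lower at an unadjusted p under 0.05), and edgeR and DESeq2 also called 0. With limma 1.22% of all tested genes were higher and 0.583% lower in KO, so few calls are to be found among 68 genes. An unadjusted p under 0.05 was found for 13.5% of all tested genes. The list's median log2 fold change was 0.01, with a range of -1.30 to 0.93, against -0.01 over all tested genes. The lowest p values belonged to genes lower in KO. Fancl, the ligase that ubiquitinates FANCD2, had 17.3, 24.1 and 41.9 in KO replicates 1 to 3 and 64.1, 77.7 and 48.3 in WT replicates 1 to 3 (log2 fold change -1.22, limma adjusted p = 0.116). Its partner Fancb had 8.46 ± 2.68 in KO and 22.99 ± 9.27 in WT, and Rbbp8, which encodes the resection factor CtIP, 132 ± 14.9 in KO and 195 ± 29.9 in WT (SD, n = 3 each; limma adjusted p = 0.204 and 0.224). The groups did not overlap for Fancl, Fancb or Rbbp8, but none of them passed. In 10 of the 68 genes every KO library was below every WT library, and in 7 every KO library was above. Over all tested genes the shares were 9.25% below and 9.84% above.

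For comparison, 12 of 20 tested genes on a list of p53 targets outside repair rose and 0 fell with limma, and the list's median log2 fold change was 1.36. Over all tested genes 1.22% were higher and 0.583% lower in KO. On that list 1 gene fell with DESeq2, with library weights and without WT replicate 3. Leaving out KO replicate 1 gave 6 that rose, leaving out KO replicate 3 gave 5, and leaving out WT replicate 2 gave 7. That list was also written with earlier results of these libraries known and is not independent evidence of a direction. Its members with the lowest p were Ccng1, a cyclin, at 430 ± 59.3 in KO and 88.1 ± 25.5 in WT, and Trp53inp1, a p53 cofactor, at 535 ± 83.4 in KO and 171 ± 6.87 in WT (SD, n = 3 each; limma adjusted p = 0.00113 and 0.00151). Of 6 members taken from general knowledge as p53 targets in mouse or human, a choice that is not exhaustive, Polk and Zfp365 rose, and Xpc, Polh, Ddb2 and Rrm2b did not pass. A list of 20 tested mitosis genes had a median log2 fold change of -0.53 with 0 called, and the 23 S phase genes 0.45 with 0 called (8 and 2 at an unadjusted p under 0.05; DESeq2 called 2 lower and 2 higher).

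**Figure D4:**
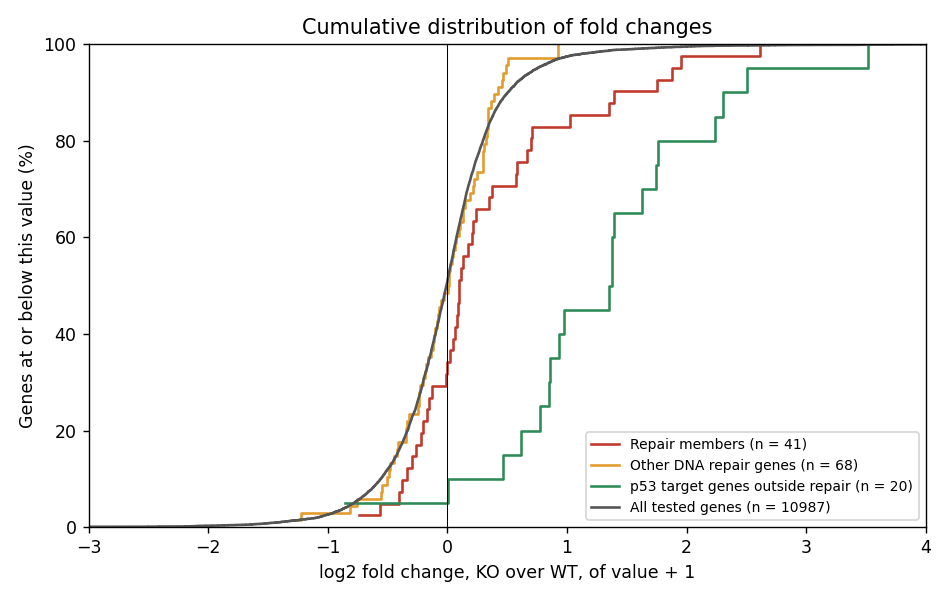
Cumulative share, in percent, of genes at or below each log2 fold change, KO over WT, for the 41 tested members, 68 other DNA repair genes, 20 p53 targets outside repair and all 10987 tested genes. The curve of the other repair genes runs with that of all genes around a median of 0.01, the members leave it at the upper end where the 6 genes that rose lie, and the p53 targets lie to the right with a median of 1.36.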

How the data were processed

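The authors deposited a table of normalised read counts, a signal on a linear scale, and a results table with log2 fold changes, a score (the Wald statistic) and p-values for called genes, per the file headers. The submitters' processing notes list FastQC, STAR, featureCounts and DESeq2. The sources used here give no versions, genome build or strand setting. Every value was a whole multiple of 1 step per library (100% to within 0.01 of a read), so whole reads were recovered for the count tests. Libraries are separate mice, and replicate numbers come from the titles.

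Values were transformed to log2(value + 1), which understates changes of low genes. Genes with at least 10 in at least 3 libraries were fitted with limma 3.58.1 (intensity trend, Benjamini-Hochberg over 10987 genes, two-sided) in R 4.3.3, and with edgeR 4.0.16 and DESeq2 1.42.0 on the reads. The fit was tested on simulated data. An exact permutation test of 3 mice against 3 cannot go below 0.1, so none was used. Members and lists were chosen with earlier results of these data known. Named members are those called, those with an unadjusted p under 0.05, the 2 lowest p per role and the p53 targets, and others named were chosen after their values were seen. Positions are from GENCODE M21 by Ensembl ID. H2afx matched no row by that symbol.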

Additional observations from a re-analysis of the deposited data

How the results depend on the processing

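The members called were 6 higher and 0 lower in KO. The number higher was 5 to 6 when 1 library was left out and under every other setting (other pseudocounts of 0.5 and 5, no filter, a filter at 50, edgeR, DESeq2, TMM scaling, equal totals, library name style, library weights, robust moderation), and 0 fell under each. Rev1 was the member lost, with a limma adjusted p of 0.0648 to 0.0975 and log2 fold changes of 1.16 to 1.58 with 1 library left out, 0.0799 with equal totals (log2 fold change 1.36) and 0.102 with the library name style as a covariate (1.37). The filter at 50 removed Zfp365 from testing. Ddb2, which did not pass, changed sign without KO replicate 3 (log2 fold changes of -0.41 to 0.21 with 1 library left out). Over all genes 198 were called, 68 to 186 with 1 library left out (leaving out KO replicate 1 gave 75, KO replicate 2 gave 112, KO replicate 3 gave 68 and WT replicate 2 gave 80), 368 with DESeq2, 82 with the library name style and 590 with library weights. Those weights also called 1 of the other DNA repair genes lower, where 0 were called otherwise. The name style (digits or a letter) is partly aligned with genotype, and its meaning is not given. The replicate numbers were not taken as pairs of mice. Correlations of same-numbered deviations were -0.25, 0.03 and 0.28, and those of unlike numbers ran from -0.40 to 0.41. So few values cannot decide whether mice were paired. With the replicate block the members called were 6 higher, and 178 genes were called in all. Members with few reads have wide errors (SE 0.17 to 0.69 on the log2 scale), so changes of low members may not be detectable at this depth.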
